A study of Mus musculus with 8 samples.

Results

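Interstitial fibroblasts and pericytes of the kidney were followed through 10 genes that mark them: Pdgfrb, Cspg4, Rgs5, Pdgfra, Dcn, Lum, Nt5e, Gli1, Tbx18 and Meg3. The genes were taken as a named list of stromal markers, drawn up with earlier results of these data known, out of 37583 gene identifiers counted in 8 whole mouse kidney libraries. Of the 10, 9 passed the filter on low counts and were tested, and Tbx18 did not pass it. The 4 libraries labelled knockout (KO-labelled) came from animals carrying a Six2-driven Cre recombinase, with both Tfap2a alleles and 1 of the Tfap2b alleles floxed, written Six2Cre+TFAP2Afl/flTFAP2Bfl/WT in the labels. The 4 libraries labelled wildtype (WT-labelled) came from control littermates given as WT, whose Cre and floxed alleles are not stated. Age, sex, litter and sequencing batch are not given. Nothing in the labels ties each library to its own animal, so the p-values speak only of library-to-library spread, which may be technical.

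Fibroblasts of the kidney lie between the tubules and lay down the matrix, and pericytes wrap the capillaries beside them. Both descend mainly from stromal progenitors that express Foxd1, a lineage apart from the Six2-expressing progenitors of the nephron in which this Cre is active. Platelet-derived growth factor (PDGF) from endothelium and tubule acts on these cells through the receptors encoded by Pdgfrb and Pdgfra, and it recruits pericytes to vessels. In whole tissue, fewer cells of a type and less RNA per cell cannot be told apart.

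Counts assigned to genes totalled 13871861 to 15763526 in the KO-labelled libraries and 14721847 to 16629301 in the WT-labelled ones. Levels are given as CPM, the usual depth-scaled count, with library sizes adjusted by the trimmed mean of M values (TMM). The targeted genes were not lower in the KO-labelled libraries: Tfap2a was at 5.05 ± 0.99 CPM (KO-labelled) and 4.21 ± 1.08 CPM (WT-labelled), and Tfap2b at 79.9 ± 20.3 CPM (KO-labelled) and 78.2 ± 20.5 CPM (WT-labelled) (SD, n = 4 each). The labels behind every direction given here therefore have no support from Tfap2a and Tfap2b. Whole-kidney counts over the whole gene may not show a deletion confined to the nephron lineage, and 1 Tfap2b allele was not floxed. These values therefore cannot decide whether the labels are right. Nephron transcripts were abundant in all libraries, with Umod, made by the thick ascending limb, at 4518 ± 449 CPM (KO-labelled) and 3964 ± 287 CPM (WT-labelled). All 17 further pericyte genes and all 20 further fibroblast genes listed as a check of the stroma were present and passed the filter. Adrenal transcripts set 2 libraries apart: the summed level of 10 adrenal cortex genes was 1076 CPM in knockout replicate 2 and 1068 CPM in wildtype replicate 1, against 94.2 to 136 CPM in the other KO-labelled and 97.3 to 118 CPM in the other WT-labelled libraries. Most of the sum in those other libraries was 1 gene, Fdx1, at 81.2 to 128 CPM.

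For no tested fibroblast or pericyte gene did the difference between the groups exceed the spread of the libraries. By edgeR's quasi-likelihood test with Benjamini-Hochberg adjustment over 14433 genes, 0 of the 9 tested genes passed an adjusted p of 0.05, where 0% of all genes passed. None of the 9 reached an unadjusted p of 0.05 either, a level that 4% of all genes reached in the same test, and DESeq2, which gave no p for Meg3, and limma-voom also gave 0 of these genes at both levels. With libraries left out, the unadjusted edgeR p was 0.0189 for Rgs5 without knockout replicate 3, 0.0366 for Dcn and 0.0288 for Nt5e without knockout replicate 4, and 0.0469 for Nt5e without wildtype replicate 1. It was 0.0383 for Dcn without knockout replicate 4 and wildtype replicate 4 together, and none of these passed after adjustment (adjusted p = 0.491 to 0.999). The share of all genes under 0.05 differed between these refits. It was 1252 of 14678 genes without knockout replicate 3 and 1250 of 14657 without wildtype replicate 1. Without knockout replicate 4 it was 536 of 14653, and without both replicates 4 it was 309 of 14504. The libraries of both groups overlapped for all 10 genes, while they did not overlap for 1.97% of the genes tested. Differences were positive for 7 of the 9 genes and for 51.3% of all genes, with a median log2 fold change of 0.10 over the 9 and 0.01 over all genes. With the adrenal-positive pair left out, 4 of the 9 were positive.

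**Figure D1:**
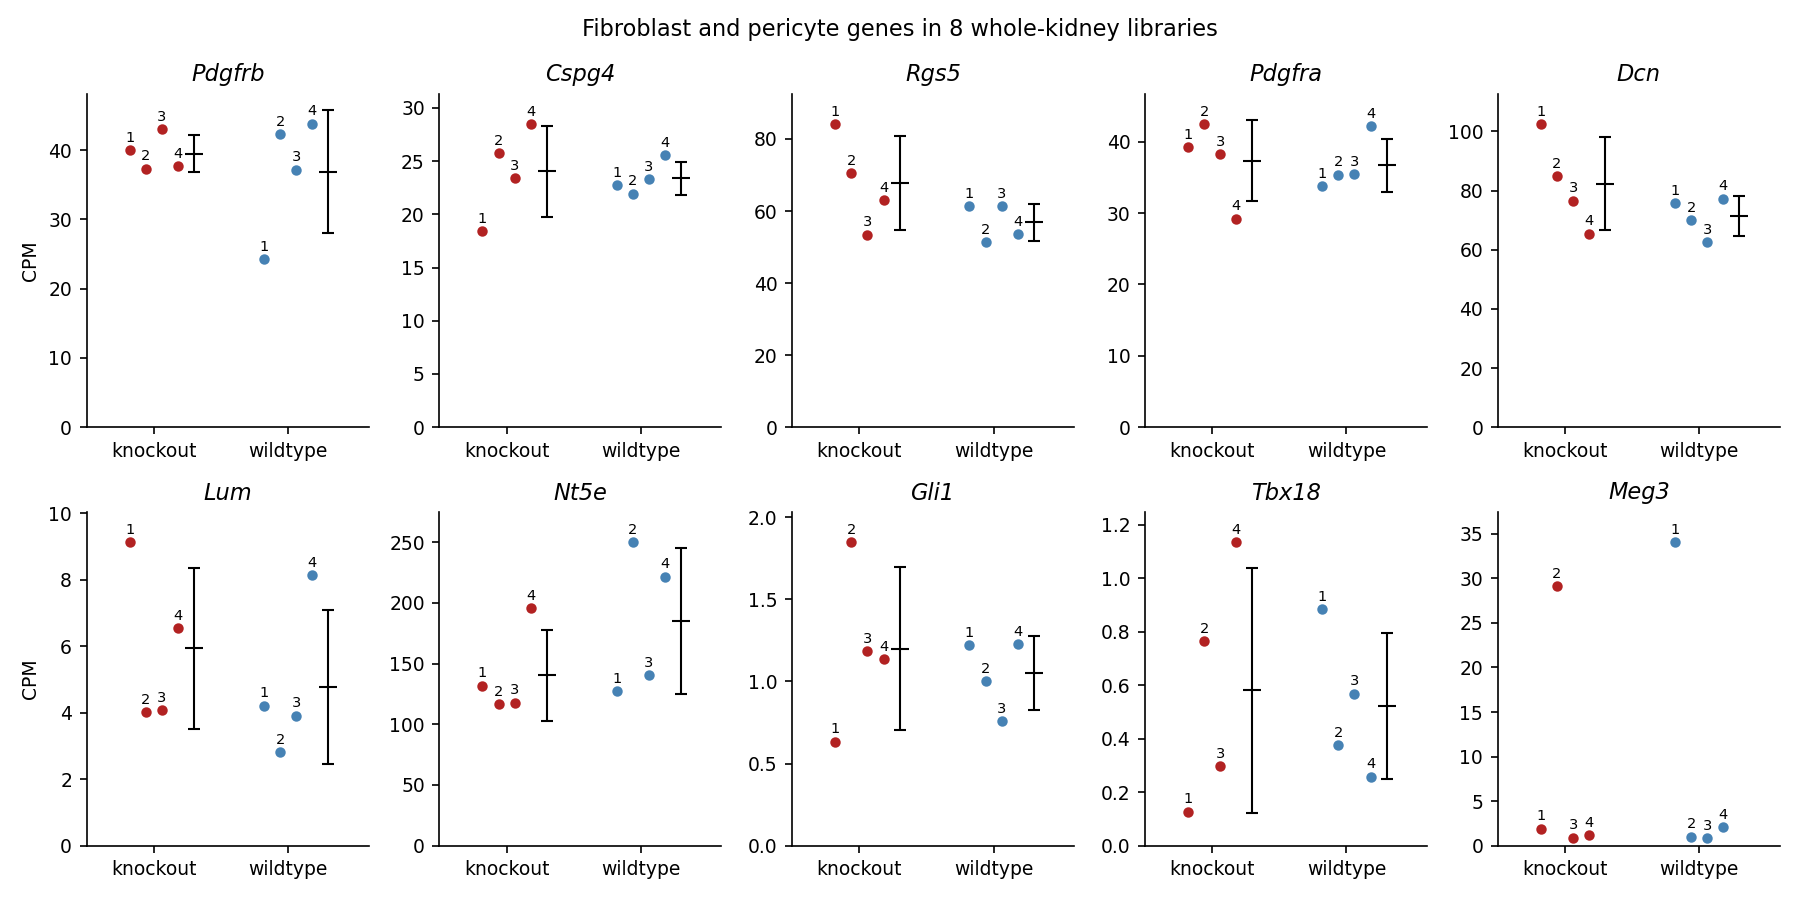
CPM (vertical axis, from 0, a scale for each gene) of the 10 genes in the 4 libraries labelled knockout (red, left) and the 4 labelled wildtype (blue, right). Numbers are replicate numbers, and bars show mean ± SD (n = 4), left out for Meg3. The groups overlap in every panel, and Meg3 is high in knockout replicate 2 and wildtype replicate 1.

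Levels of different genes were set side by side per kilobase of merged exons, with exon lengths from GENCODE M21. On this scale, mean levels over 8 libraries ran from 18.9 CPM per kb for Nt5e through 13.7 for Rgs5, 13.2 for Dcn, 6.97 for Pdgfrb, 3.69 for Pdgfra, 2.19 for Lum, 1.99 for Cspg4, 0.49 for Meg3 and 0.23 for Gli1 to 0.12 CPM per kb for Tbx18. The ranges of Nt5e, Rgs5 and Dcn overlapped, so their order is not fixed by these libraries. Dcn stood above Pdgfrb, and Pdgfrb above Pdgfra, with no overlap of their ranges per kb. Lum and Cspg4 overlapped, and Lum was the higher in 3 of 8 libraries. The exon lengths come from a later annotation than the mm9 build of the counts, so these levels are approximate.

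**Figure D2:**
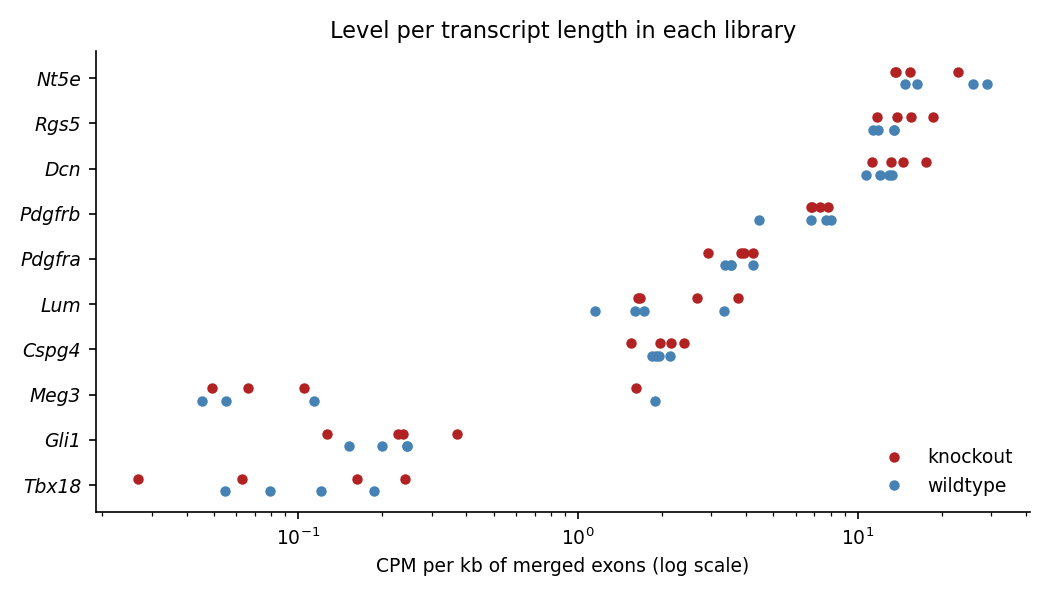
CPM per kb of merged exons on a log scale (horizontal axis) for each gene (rows, ordered by mean level) in each library labelled knockout (red, upper row of points) or wildtype (blue, lower row). Nt5e, Rgs5 and Dcn share the highest range, between 10.7 and 29.0 CPM per kb, and Meg3 falls into separate low and high levels.

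Among the mural cell genes, the PDGF receptor gene Pdgfrb (ENSMUSG00000024620, chromosome 18, 61045150 to 61085061 on GRCm38) had 40.0, 37.3, 43.0 and 37.6 CPM in knockout replicates 1 to 4, against 24.3, 42.3, 37.2 and 43.8 CPM in wildtype replicates 1 to 4. Wildtype replicate 1 was the low library, and the other 7 lay between 37.2 and 43.8 CPM. The log2 fold change was 0.10 (SE 0.17, 95% interval -0.27 to 0.46; edgeR adjusted p = 0.962), and it was -0.055 without wildtype replicate 1. Wildtype replicate 1 is also an adrenal-positive library, while the other, knockout replicate 2, was at 37.3 CPM; the part of adrenal tissue in the low value was not tested.

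Cspg4 (ENSMUSG00000032911, chromosome 9, 56865033 to 56899870 on GRCm38) encodes the proteoglycan NG2 on the pericyte surface. It had 18.4, 25.7, 23.4 and 28.5 CPM in knockout replicates 1 to 4, against 22.8, 21.9, 23.3 and 25.5 CPM in wildtype replicates 1 to 4. The lowest and the highest library both belonged to the knockout label, and the log2 fold change was 0.04 (SE 0.14, 95% interval -0.26 to 0.34; edgeR adjusted p = 0.981). It was -0.051 without knockout replicate 4.

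Rgs5 (ENSMUSG00000026678, chromosome 1, 169655501 to 169695813 on GRCm38), which encodes a regulator that shortens G protein signalling in pericytes and arterial smooth muscle, had the smallest p of the 9 genes. Its levels were 84.2, 70.6, 53.4 and 63.1 CPM in knockout replicates 1 to 4, against 61.3, 51.4, 61.3 and 53.5 CPM in wildtype replicates 1 to 4. Knockout replicates 1, 2 and 4 exceeded every library labelled wildtype, and knockout replicate 3 fell among them. The log2 fold change was 0.25 (SE 0.14, 95% interval -0.05 to 0.56; edgeR unadjusted p = 0.0936, adjusted p = 0.957). Smooth muscle transcripts, over 9 genes, summed to 173, 204, 157 and 242 CPM in knockout replicates 1 to 4. In wildtype replicates 1 to 4 the sums were 143, 173, 151 and 187 CPM. Tagln, Acta2 and Des of this list also stand in the stromal lists, and the part of smooth muscle in the Rgs5 values was not tested.

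The fibroblast receptor gene Pdgfra (ENSMUSG00000029231, chromosome 5, 75152292 to 75198215 on GRCm38) varied least of the 10 genes, with a coefficient of variation of 12.1% over 8 libraries, where the median over all tested genes was 15.8%. It had 39.2, 42.5, 38.2 and 29.2 CPM in knockout replicates 1 to 4, against 33.8, 35.4, 35.4 and 42.2 CPM in wildtype replicates 1 to 4. Knockout replicate 4 was lowest and knockout replicate 2 highest, and the log2 fold change was 0.02 (SE 0.13, 95% interval -0.26 to 0.31; edgeR adjusted p = 0.991). It was -0.0012 without knockout replicate 1, -0.047 without knockout replicate 2 and -0.011 without wildtype replicate 1.

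Dcn (ENSMUSG00000019929, chromosome 10, 97479609 to 97518143 on GRCm38) encodes decorin, a small leucine-rich proteoglycan that binds collagen fibrils. It had 102.6, 84.8, 76.5 and 65.4 CPM in knockout replicates 1 to 4, against 75.8, 69.9, 62.5 and 77.3 CPM in wildtype replicates 1 to 4. Knockout replicates 1 and 2 stood above all libraries labelled wildtype, and the other pair fell within their range. The log2 fold change was 0.21 (SE 0.14, 95% interval -0.10 to 0.51; edgeR unadjusted p = 0.164, adjusted p = 0.957). Adipocytes, which lie next to Dcn-expressing fibroblasts in fat around the kidney, left sums of 812, 884, 274 and 698 CPM over 10 marker genes in knockout replicates 1 to 4, against 898, 319, 261 and 504 CPM in wildtype replicates 1 to 4. Wildtype replicate 1 had the highest adipocyte sum with Dcn at 75.8 CPM, and the part of fat in the Dcn values was not tested.

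Lum (ENSMUSG00000036446, chromosome 10, 97565128 to 97572703 on GRCm38), which encodes the related proteoglycan lumican, lies 47.0 kb from Dcn with 0 annotated genes between them. It had 9.12, 4.01, 4.08 and 6.54 CPM in knockout replicates 1 to 4, against 4.21, 2.81, 3.91 and 8.13 CPM in wildtype replicates 1 to 4. Each group thus held a library above 8 CPM, and the log2 fold change was 0.32 (SE 0.36, 95% interval -0.48 to 1.12; edgeR adjusted p = 0.957). Despite their position, Dcn and Lum did not track each other closely over the 8 libraries (Pearson r = 0.49, exact permutation p = 0.215; Spearman rho = 0.52, exact permutation p = 0.197), and without the 2 libraries farthest from the Dcn median r was -0.10. Adjusted over the 28 pairs of these genes compared, p was 0.862 for r and 0.839 for rho (exact permutation tests).

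**Figure D3:**
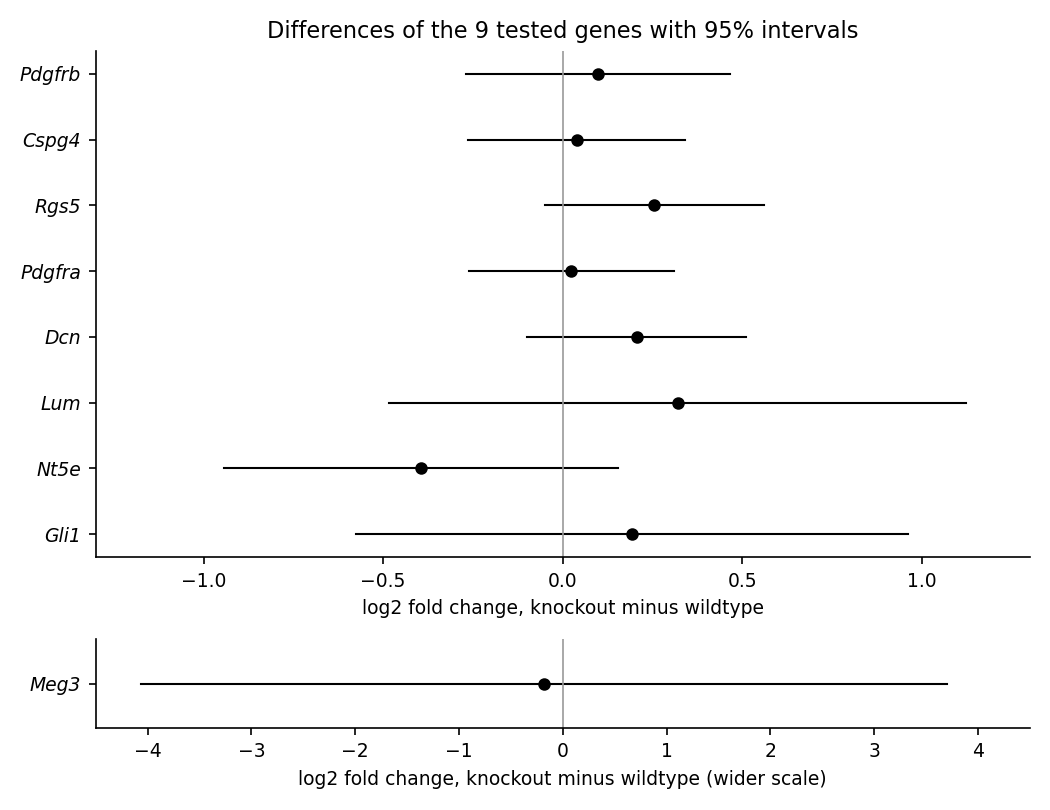
Log2 fold change, knockout minus wildtype (horizontal axis; points), with 95% intervals (lines) from edgeR for the 9 tested genes (rows). Every interval includes 0, and that of Meg3, on the wider lower scale, runs from -4.07 to 3.71.

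Nt5e (ENSMUSG00000032420, chromosome 9, 88327197 to 88372092 on GRCm38) encodes CD73, the surface enzyme that makes adenosine from AMP; it marks fibroblasts of the cortex and is also made by tubule cells. It had 132, 117, 118 and 196 CPM in knockout replicates 1 to 4, against 127, 249.9, 140 and 222 CPM in wildtype replicates 1 to 4. Knockout replicate 4 and wildtype replicates 2 and 4 were high, and the other 5 libraries lay between 117 and 140 CPM, so that both groups held high and low libraries. The log2 fold change was -0.40 (SE 0.25, 95% interval -0.94 to 0.15; edgeR unadjusted p = 0.139, adjusted p = 0.957). The clock gene Arntl, looked up after these values were seen, was at 24.3 CPM in knockout replicate 4 and 20.4 CPM in wildtype replicate 4, against 6.75 CPM in wildtype replicate 2 and 1.77 to 5.67 CPM in the other 5. Time of day is not given in the labels, and its part in the Nt5e values was not tested.

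The genes of the adenosine pathway around Nt5e gave 0 calls among 13 tested, with 11 positive and a median log2 fold change of 0.14. Adora2a, an adenosine receptor that relaxes vessels, was at 5.59 ± 1.31 CPM (KO-labelled) and 3.90 ± 0.29 CPM (WT-labelled) (log2 fold change 0.52, SE 0.20; edgeR adjusted p = 0.957). Slc29a1, a nucleoside transporter that carries adenosine into cells, was at 29.1 ± 3.44 CPM (KO-labelled) and 23.2 ± 4.58 CPM (WT-labelled). Alpl, the tissue non-specific alkaline phosphatase, was the most abundant member at 396 ± 103 CPM (KO-labelled) and 311 ± 21.6 CPM (WT-labelled).

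Of the transcription factor genes, Gli1 (ENSMUSG00000025407, chromosome 10, 127329882 to 127341974 on GRCm38), a target and effector of hedgehog signalling that marks perivascular cells able to become myofibroblasts, had 10, 29, 16 and 17 counts in knockout replicates 1 to 4, against 18, 16, 12 and 19 counts in wildtype replicates 1 to 4. These were 0.63 to 1.85 CPM in the KO-labelled libraries and 0.76 to 1.23 CPM in the WT-labelled ones, where a count of 0 would allow up to 0.188 to 0.222 CPM. Knockout replicate 2 was highest and knockout replicate 1 lowest, and the log2 fold change was 0.19 (SE 0.35, 95% interval -0.57 to 0.96; edgeR adjusted p = 0.967), or -0.10 without knockout replicate 2. Exons of Gli1 overlap those of Arhgap9 on the other strand by 62 bases, and the counts do not separate strands.

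In the hedgehog pathway as a whole, 0 of 12 tested genes passed, 6 were positive and 6 negative, and the median log2 fold change was 0.10. Ihh, the ligand made by kidney tubules, had 29.1, 30.5, 26.5 and 43.6 CPM in knockout replicates 1 to 4, against 25.8, 18.3, 25.0 and 24.8 CPM in wildtype replicates 1 to 4. The groups did not overlap for Ihh, but its log2 fold change of 0.47 (SE 0.17; edgeR unadjusted p = 0.0204) had an adjusted p of 0.957. Boc, a hedgehog co-receptor, was at 9.69 ± 2.74 CPM (KO-labelled) and 7.35 ± 1.18 CPM (WT-labelled), and Sufu, which restrains GLI proteins, at 72.1 ± 14.5 CPM (KO-labelled) and 76.9 ± 10.1 CPM (WT-labelled).

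Tbx18 (ENSMUSG00000032419, chromosome 9, 87702800 to 87731260 on GRCm38), a T-box factor of pericytes, vascular smooth muscle and ureteric mesenchyme, lies 595.9 kb from Nt5e. It had 2, 12, 4 and 17 counts in knockout replicates 1 to 4, against 13, 6, 9 and 4 counts in wildtype replicates 1 to 4. Both groups held libraries of at most 4 counts and of at least 12, and the gene was not tested. With no filter on low counts its log2 fold change was 0.16 (SE 0.59; edgeR adjusted p = 0.980). Among 9 tested genes of the developmental stroma, 0 passed and 6 were positive, with Meis1 at 4.47 ± 0.86 CPM (KO-labelled) and 3.60 ± 0.57 CPM (WT-labelled) and Sfrp1, a secreted WNT antagonist, at 128 ± 45.5 CPM (KO-labelled) and 139 ± 71.4 CPM (WT-labelled).

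Meg3 was the gene that set libraries apart. Meg3 (ENSMUSG00000021268, chromosome 12, 109541001 to 109571726 on GRCm38) is a long non-coding RNA transcribed from the maternal chromosome of the imprinted region between Dlk1 and Dio3. It had 30, 457, 12 and 18 counts in knockout replicates 1 to 4, against 501, 16, 13 and 32 counts in wildtype replicates 1 to 4. In CPM these were 1.90, 29.1, 0.89 and 1.20 in the KO-labelled libraries, against 34.0, 1.00, 0.82 and 2.06 in the WT-labelled ones. Knockout replicate 2 was thus 14.1-fold, and wildtype replicate 1 16.5-fold, above the highest of the other 6 libraries. With 1 such library in each group the log2 fold change was -0.18, with an interval from -4.07 to 3.71 (SE 1.63; edgeR adjusted p = 0.995). Leaving out knockout replicate 2 gave -2.81 and leaving out wildtype replicate 1 gave 2.69, and the value was 0.15, 0.19 and 0.19 with knockout replicates 1, 3 and 4 left out in turn. Without both libraries Meg3 was at 1.33 ± 0.52 CPM (KO-labelled) and 1.29 ± 0.67 CPM (WT-labelled) (SD, n = 3 each), a log2 fold change of 0.06 (edgeR adjusted p = 0.982).

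The libraries high in Meg3 were the adrenal-positive ones. Star, the carrier that supplies cholesterol for steroid hormones, was at 349 CPM in knockout replicate 2 and 334 CPM in wildtype replicate 1, with 4.00 to 6.14 CPM in the other 6. Chga, a granule protein of adrenal chromaffin cells, had 49.1 CPM in knockout replicate 2 and 68.5 CPM in wildtype replicate 1, and no other library had more than 1 count. Dlk1, the paternally expressed neighbour of Meg3 and a transcript of the adrenal, was at 8.66 CPM in knockout replicate 2 and 15.3 CPM in wildtype replicate 1, with 0.13 to 0.65 CPM elsewhere. Above the median of the other 6 libraries, the excess in knockout replicate 2 relative to wildtype replicate 1 was 0.85-fold for Meg3, 1.05-fold for Star, 0.72-fold for Chga and 0.56-fold for Dlk1. The source of Meg3 in these libraries was not tested. Of the other 9 fibroblast and pericyte genes, 0 had both of these libraries outside the range of the other 6.

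**Figure D4:**
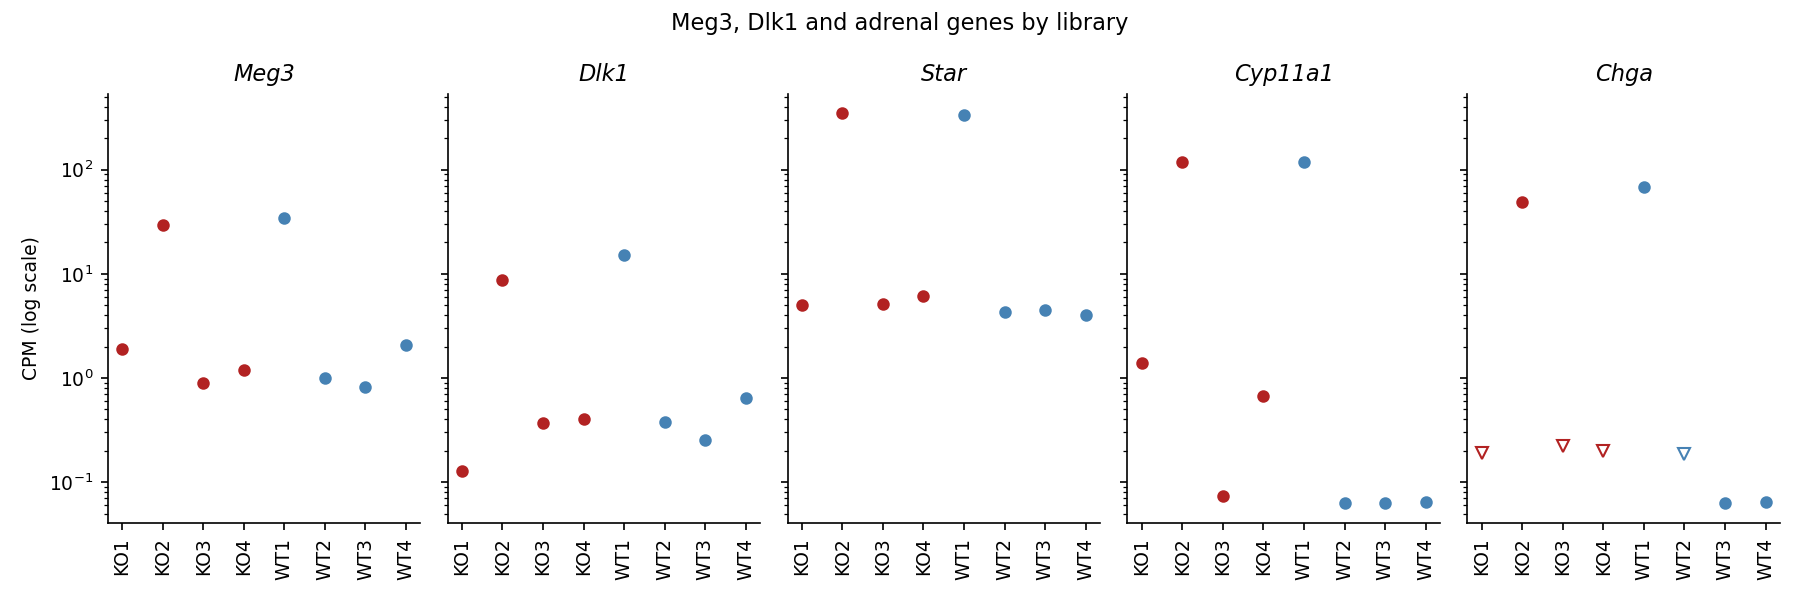
CPM on a log scale (vertical axis, shared) of Meg3, Dlk1, the adrenal cortex genes Star and Cyp11a1 and the adrenal medulla gene Chga in each library (KO, labelled knockout, red; WT, labelled wildtype, blue). Open triangles mark 0 counts, drawn at the level that a count of 0 allows. KO2 and WT1 are the high libraries in every panel.

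The promoter of Meg3 is printed because this gene carries the difference between libraries. The 250 bases before its RefSeq start, chr12:109540746-109540995 on GRCm38.p6, plus strand, read 5′ to 3′ with matches to GCCNNNGGC and TGACGTCA in capitals:
Meg3: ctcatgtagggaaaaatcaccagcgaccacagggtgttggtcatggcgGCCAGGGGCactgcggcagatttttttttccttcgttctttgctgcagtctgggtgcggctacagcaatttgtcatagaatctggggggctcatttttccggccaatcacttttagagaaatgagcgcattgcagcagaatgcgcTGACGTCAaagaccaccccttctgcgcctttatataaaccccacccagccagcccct
GCCNNNGGC is the palindromic site that AP-2 factors, the family of Tfap2a and Tfap2b, bind, and TGACGTCA is the cAMP response element; both are palindromes, so that a match on either strand is the same match. Each occurred 1 time in this window. Among 32851 RefSeq promoter windows of this length, 13.7% held the first and 1.55% the second. Windows were found for 6 of the 10 genes (7 windows), and apart from Meg3 only Nt5e had a match, with 2 to GCCNNNGGC and 0 to TGACGTCA. They are shown with 10 bases on either side, matches in capitals, plus strand, at chr9:88327472-88327500 and chr9:88327546-88327574 on GRCm38.p6:
Nt5e, first match: cgtgtgctggGCCAGAGGCtcccgggtgc
Nt5e, next match: aagcgggaggGCCTGGGGCtggaagaggc
Both Nt5e matches lie before its RefSeq start but inside the longer span that GENCODE gives the gene. A match describes the letters only, and binding was not measured.

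Families and partners of these genes were read from 11 lists. Over their 102 distinct tested genes, with the 10 left out, 0 passed the edgeR test, 78 had a positive log2 fold change (76.5%, against 51.3% of all genes) and the median was 0.17. The groups did not overlap for 5 of the 102 (4.90%, against 1.97% of all genes), which were Aspn, Omd, Ihh, Rgs3 and Higd1b. Higd1b was low, at 0.19 to 1.27 CPM. At an unadjusted p under 0.05 there were 11 of these genes (10.8%, against 4% of all genes), all of them positive. The positive share was 66.7% without wildtype replicate 1 and 67.6% without knockout replicate 3, and the count of 11 was 4 without wildtype replicate 2, 7 without knockout replicate 2, 6 without the adrenal-positive pair and 7 without the pair of replicates 4. Leaving out knockout replicate 3 gave 15 genes, leaving out wildtype replicate 1 gave 14 (12 of them positive), and the count was 17 with the replicate number as a block (15 of them positive). The count over all genes moved as well. It was 1252 of 14678 without knockout replicate 3, 1250 of 14657 without wildtype replicate 1 and 1075 of 14433 with the block. It was 343 of 14621 without wildtype replicate 2 and 427 of 14635 without knockout replicate 2. Without the adrenal-positive pair it was 770 of 14500, and without the pair of replicates 4 it was 309 of 14504. Genes of a cell type vary together, so the shares of the 102 do not count independent observations.

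All 4 PDGF ligand genes were tested, and their log2 fold changes lay between 0.03 and 0.14 with 0 calls; Pdgfa was at 27.4 ± 1.94 CPM (KO-labelled) and 24.8 ± 3.32 CPM (WT-labelled). Among 7 tested proteoglycan genes related to Dcn and Lum, 5 were positive and 0 passed. Omd, osteomodulin, had 3.42, 3.89, 4.15 and 3.87 CPM in knockout replicates 1 to 4, against 2.79, 2.63, 1.51 and 2.06 CPM in wildtype replicates 1 to 4 (log2 fold change 0.77, SE 0.22; edgeR unadjusted p = 0.00592, adjusted p = 0.957). Aspn, asporin, was at 5.75 ± 0.93 CPM (KO-labelled) and 4.09 ± 0.65 CPM (WT-labelled), and Bgn, biglycan, the most abundant, at 161 ± 29.1 CPM (KO-labelled) and 152 ± 44.6 CPM (WT-labelled). Of 3 tested relatives of Rgs5 all were positive, with Rgs3 at 11.8 ± 1.06 CPM (KO-labelled) and 8.66 ± 2.22 CPM (WT-labelled) and Rgs2 at 34.4 ± 6.43 CPM (KO-labelled) and 26.2 ± 13.0 CPM (WT-labelled).

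Among 17 further pericyte genes, 14 were positive and 0 passed, with a median log2 fold change of 0.21. Higd1b, a pericyte-enriched mitochondrial gene, had 1.20, 1.15, 0.89 and 1.27 CPM in knockout replicates 1 to 4, against 0.82, 0.56, 0.57 and 0.19 CPM in wildtype replicates 1 to 4. Its groups did not overlap, and its log2 fold change of 1.07 (SE 0.38; edgeR unadjusted p = 0.0161) had an adjusted p of 0.957. The separation is narrow and at a low level, with 0.89 CPM in knockout replicate 3 against 0.82 CPM in wildtype replicate 1. Wildtype replicate 4 was no higher than the level that a count of 0 allows in that library (0.19 CPM). Ebf1, a transcription factor of perivascular cells, was at 10.6 ± 2.32 CPM (KO-labelled) and 8.60 ± 0.25 CPM (WT-labelled). The aminopeptidase gene Anpep, which brush borders also express, was the most abundant at 241 ± 56.6 CPM (KO-labelled) and 301 ± 62.9 CPM (WT-labelled). The summed level of the list ran the other way from its median, at 315 to 423 CPM in the KO-labelled libraries and 330 to 505 CPM in the WT-labelled ones. Anpep made up most of this sum in every library, at 162 to 284 CPM (KO-labelled) and 218 to 364 CPM (WT-labelled). Its log2 fold change was -0.32, so the sum mainly follows Anpep and not the list as a whole.

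Among 20 further fibroblast genes, 15 were positive and 0 passed, with a median of 0.17. Pi16, a marker of adventitial fibroblasts, had 6.78, 9.24, 4.52 and 7.47 CPM in knockout replicates 1 to 4, against 3.53, 4.75, 3.16 and 4.77 CPM in wildtype replicates 1 to 4, with knockout replicate 3 inside the wildtype range (log2 fold change 0.79, SE 0.24; edgeR unadjusted p = 0.00746, adjusted p = 0.957). Gsn, the actin-severing protein gelsolin, was at 165 ± 31.2 CPM (KO-labelled) and 127 ± 20.4 CPM (WT-labelled), and Igfbp5 at 575 ± 136 CPM (KO-labelled) and 502 ± 102 CPM (WT-labelled). Among 10 tested genes of myofibroblast activation, 8 were positive and 0 passed. Their summed level was 165 to 192 CPM in the KO-labelled libraries and 128 to 144 CPM in the WT-labelled ones, while the contractile genes Tagln, at 39.0 ± 10.7 CPM (KO-labelled) and 26.8 ± 7.07 CPM (WT-labelled), and Acta2, at 38.0 ± 10.9 CPM (KO-labelled) and 27.4 ± 4.57 CPM (WT-labelled), each overlapped between the groups. Ccn2, the most abundant, overlapped too, at 61.4 ± 17.4 CPM (KO-labelled) and 49.2 ± 12.2 CPM (WT-labelled). How often sums of other genes separate the groups was not tested. Of 7 tested mesangial genes 6 were positive and 0 passed, with Hopx at 9.15 ± 1.65 CPM (KO-labelled) and 6.83 ± 1.81 CPM (WT-labelled).

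Beside these lists, the sum of 12 endothelial genes was 604 to 689 CPM in the KO-labelled libraries and 522 to 577 CPM in the WT-labelled ones. Of the 12, 0 passed the edgeR test, 12 were positive, 5 had an unadjusted p under 0.05 and 4 did not overlap between the groups. Over all genes 0% passed that test, 51.3% were positive, 4% had an unadjusted p under 0.05 and 1.97% did not overlap. Heat-shock and immediate early transcripts had sums of 289, 829.8, 302 and 1396 CPM in knockout replicates 1 to 4 against 279 to 385 CPM in the WT-labelled libraries. Without knockout replicates 2 and 4 the positive share of the 102 genes of the 11 related lists, not all of them stromal, was 73.5%. Mostly positive log2 fold changes were not particular to the related and endothelial lists. Positive were 5 of 5 tested podocyte, 8 of 8 urothelial, 9 of 10 adipocyte and 7 of 8 smooth muscle genes. For loop and distal tubule it was 4 of 6, for proximal tubule 2 of 8 and for macrophages 1 of 8. Epithelial, immune and medullary transcripts overlapped between the groups. Their sums were 38459 to 65250 CPM (KO-labelled) and 51011 to 61875 CPM (WT-labelled) for proximal tubule, and 7071 to 9083 CPM (KO-labelled) and 6331 to 7506 CPM (WT-labelled) for loop and distal tubule. None of the genes of these lists was at 0 in all libraries. Podocyte genes summed to 121 to 158 CPM (KO-labelled) and 78.6 to 155 CPM (WT-labelled), and urothelial genes to 27.7 to 49.7 CPM (KO-labelled) and 16.5 to 46.1 CPM (WT-labelled). Macrophage genes summed to 259.6 to 399 CPM (KO-labelled) and 222 to 599 CPM (WT-labelled), and adrenal medulla genes to 105 to 243 CPM (KO-labelled) and 117 to 462 CPM (WT-labelled). Outside the adrenal-positive libraries nearly all of the adrenal medulla sum was 1 gene, Slc18a1, at 104 to 178 CPM. Th, Dbh, Chga and Pnmt had at most 2 counts there. The part of these tissues in the stromal values was not tested.

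**Figure D5:**
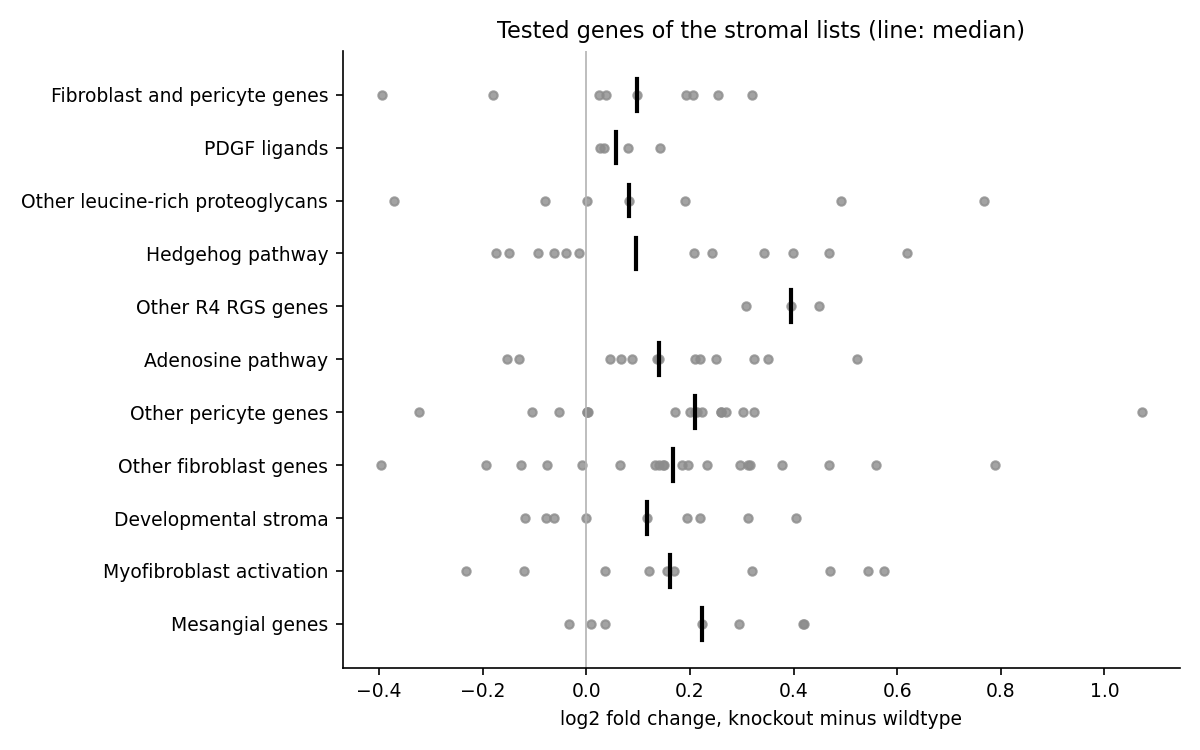
Log2 fold change, knockout minus wildtype (horizontal axis), of the tested genes (points) of the 10 named genes and of the lists related to them (rows), with the median of each list (black line). Medians lie between 0.06 for PDGF ligands and 0.40 for the relatives of Rgs5, and 0 genes passed the test.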

How the data were processed

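Whole mouse kidneys were sequenced in 8 libraries, grouped by their titles. The authors deposited 1 table per library with the raw count of each gene. STAR, HTSeq and edgeR were used with build mm9, per the submitters' processing notes; no versions are given in the sources used here. Counting ignored strand, going by how the deposited tables are named. Lines that name no gene (no feature 11.6% to 16.2%, ambiguous 2.05% to 2.31%, not unique 15.8% to 20.9% of each file) were left out. Symbols and GRCm38 positions came from GENCODE M21 by identifier (32860 of 37583 matched); promoters came from RefSeq (GRCm38.p6).

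The test was edgeR 4.0.16 in R 4.3.3, quasi-likelihood, two-sided, robust, TMM, filterByExpr (minimum count 10, total 15), genotype as the only term, Benjamini-Hochberg threshold 0.05; it was tested on simulated data. Standard errors and 95% intervals come from the same fit. A count of 0 allows up to 3 counts, counting error only. Over 28 pairs, libraries differed with a chi-square per gene of 10.1 to 78.4, above sampling noise. Exact permutation tests of correlations used 40320 orders of log2 (CPM + 0.5). Alternatives used DESeq2 1.42.0, limma-voom 3.58.1, other scalings and filters, and fewer libraries.

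The genes and the 22 lists were chosen with earlier results of these data known. Named from each list of related genes were those with the lowest p (up to 2) and the most abundant; from each cell type list, summed levels and the 2 most abundant genes, of which some are given. Other genes named were chosen after their values were seen.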

Additional observations from a re-analysis of the deposited data

Results flagged for a closer look

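Of 98 groups of 4 libraries examined, 7 held a library farther from the other 3 than Dixon's 95% critical value allows, a limit that chance passes in about 1 group in 20. Meg3 was at 29.1 CPM in knockout replicate 2, with 0.89 to 1.90 CPM in the other KO-labelled libraries, and at 34.0 CPM in wildtype replicate 1, with 0.82 to 2.06 CPM in the other WT-labelled ones. The summed adrenal cortex genes were at 1076 CPM in knockout replicate 2 and 1068 CPM in wildtype replicate 1, the same libraries. The other 3 were genes of the related lists. Sufu, a hedgehog pathway inhibitor, was at 93.8 CPM in knockout replicate 3, with 63.2 to 65.9 CPM in the other libraries of that label. Ihh was at 18.3 CPM in wildtype replicate 2, with 24.8 to 25.8 CPM in the other WT-labelled libraries. Pdgfc, a PDGF ligand gene, was at 30.2 CPM in wildtype replicate 3, with 23.9 to 24.9 CPM in the others of that label.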

How the results depend on the processing

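Under 19 alternatives, 0 of the fibroblast and pericyte genes tested and 0 genes of the related lists passed the test, and the lowest adjusted p of the 9 tested was 0.491 (Rgs5 without knockout replicate 3). Over all genes, the count of 0 by edgeR (578 at an unadjusted p under 0.05) became 4 by DESeq2 (715), 1 without both libraries highest in heat-shock transcripts, and 0 to 2 with 1 library left out (1 without knockout replicate 3, 1 without knockout replicate 4 and 2 without wildtype replicate 1). Directions were the same in 151 of 170 refits and turned in 19; Dcn, Lum, Rgs5 and Nt5e did not turn in any of them. Without both adrenal-positive libraries the log2 fold change was -0.027 for Pdgfrb, -0.078 for Pdgfra, -0.0036 for Cspg4, -0.016 for Gli1 and 0.056 for Meg3. Without both heat-shock libraries it was -0.16 for Cspg4 and -0.22 for Gli1, and without both libraries highest in Arntl, an alternative chosen after seeing the data, -0.0070 for Cspg4. By limma-voom Meg3 was at 0.10; DESeq2 gave no p for Meg3. With 1 library left out, values ran from -0.055 to 0.19 for Pdgfrb, -0.047 to 0.13 for Pdgfra, -0.051 to 0.15 for Cspg4, -0.10 to 0.41 for Gli1, -2.81 (without knockout replicate 2) to 2.69 (without wildtype replicate 1) for Meg3, 0.08 to 0.30 for Dcn, 0.03 to 0.71 for Lum, 0.13 to 0.35 for Rgs5 and -0.60 to -0.22 for Nt5e. The cause of these turns was not tested beyond the libraries left out. Same-numbered libraries of both groups deviated with correlations of 0.25, -0.23, 0.30 and 0.31 for numbers 1 to 4. Only for knockout replicates 1 and 4 was the same-numbered wildtype library the best match among the wildtype libraries, so the numbers were not taken as pairs. With a replicate block, edgeR gave 0 calls and 1075 genes at an unadjusted p under 0.05, and Rgs5 was at 0.24 and Nt5e at -0.37. Tbx18 and Gli1 rest on at most 17 and 29 counts per library, and their standard errors were 0.59 (with no filter) and 0.35 on the log2 scale.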

Other observations

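The 9 tested genes were also set against all other tested genes by Pearson's r of log2 CPM over the 8 libraries, as a description: with 8 libraries and 14433 genes the best matches are high by construction, and all values share the same depth scaling. For Pdgfrb the closest were Gm5530, Mrc2, a collagen receptor gene, and Col6a3, a chain of collagen VI (r = 0.97, 0.96 and 0.96). Spearman's rho was lower for them, at 0.76, 0.90 and 0.83. Pdgfrb itself was low in wildtype replicate 1, at 24.3 CPM against 37.2 to 43.8 CPM elsewhere, and r without that library was not computed. For Dcn they were Ripply3, Ccdc102a and Akr1c12 (r = 0.98, 0.98 and 0.94), and for Rgs5 As3mt, Mrm1 and Cbr1 (r = 0.99, 0.98 and 0.97). For Meg3 they were Prss35, Cyp11a1 and Wnk4; since the libraries fall into separate low and high levels, no r is given. Cyp11a1, which starts steroid synthesis, was at 118 CPM in knockout replicate 2 and 119 CPM in wildtype replicate 1, and the other 6 reached 1.39 CPM. Prss35, a serine protease gene, was at 6.63 CPM in knockout replicate 2 and 8.09 CPM in wildtype replicate 1, and at 0.38 to 0.84 CPM in the other 6. Wnk4 differed far less, at 310 CPM in knockout replicate 2 and 297 CPM in wildtype replicate 1, against 228 to 243 CPM in the other 6.

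Within the set, 28 pairs of 8 genes (Meg3 and Tbx18 left out) were compared over the libraries. The sign was positive for 15, and 0 passed an exact permutation test after Benjamini-Hochberg adjustment (lowest adjusted p = 0.862 for Pearson's r and 0.839 for Spearman's rho). By Spearman's rho the lowest p was that of Pdgfra and Dcn (rho = 0.76, exact permutation p = 0.0368, adjusted p = 0.839; r = 0.61, exact permutation p = 0.106; r = 0.48 without the 2 libraries farthest from the Pdgfra median). By Pearson's r it was that of Cspg4 and Gli1 (r = 0.66, exact permutation p = 0.0721; rho = 0.62, exact permutation p = 0.115; r = 0.65 without the 2 libraries farthest from the Cspg4 median). Dcn and Rgs5 gave r = 0.66 (exact permutation p = 0.0791) and rho = 0.36 (exact permutation p = 0.389), with r = 0.33 without the 2 farthest libraries.

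Of the imprinted region around Meg3, 4 of 6 listed genes were in the files and 0 were expressed enough to test. Rtl1 had 2 counts in knockout replicate 2 and 8 in wildtype replicate 1, with 0 to 2 counts elsewhere, and Dio3 had at most 3 counts in any library.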
